A study of Homo sapiens with 6 samples.

Results

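Amino acid transporter genes were followed in LX-2 cells given IGFBP-7 protein and in LX-2 cells given phosphate-buffered saline (PBS). They were chosen by symbol and gene type, as the protein-coding genes of the SLC1, SLC3, SLC6, SLC7, SLC36, SLC38 and SLC43 families, which gave 39 of the 16569 genes in the table. Of these, 38 encode carriers or carrier subunits. SLC7A6OS matched by its symbol alone: it is the neighbour of SLC7A6 on the opposite strand and encodes no carrier. The label is also wider than amino acids, since SLC6A4 carries serotonin, SLC6A8 creatine and SLC43A3 purine bases. A further 22 genes listed by role for these families, among them SLC3A2, SLC1A5, SLC7A1 and SLC38A2, are not analysed here.

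LX-2 is an immortalised human line of hepatic stellate cells, the liver pericytes that make scar matrix after injury. IGFBP-7 is a secreted binding protein of the insulin-like growth factor system. Wild-type LX-2 cells were grown in DMEM with 2% fetal bovine serum and held for 18 h with no serum, and then had 24 h with IGFBP-7 at 100 ng/mL or with PBS. There were 3 RNA sequencing libraries per group, and all came from this 1 cell line in culture. The labels do not say whether replicate libraries are separate cultures. The p-values therefore reflect library-to-library spread, shared in part across genes, and part or all of it may be technical.

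Cells take up and exchange amino acids through carriers that differ in substrate, in ion coupling and in membrane. Light chains of the SLC7 family work as exchangers joined to a heavy chain of the SLC3 family. System A and system N carriers of the SLC38 family bring in small neutral amino acids and glutamine with sodium, and some SLC38 and SLC36 carriers sit in the lysosome. Stellate cells that make collagen need a large supply of glycine, proline and glutamine, and cystine taken up by SLC7A11 feeds glutathione synthesis.

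The libraries held 45242993 to 55479940 recovered reads with IGFBP-7 and 40599380 to 43537923 with PBS. The 10 genes with the most reads took 8.42% to 9.07% of them with IGFBP-7 and 4.49% to 4.66% with PBS. Calls are defined below, and over all tested genes 31.3% were called higher and 29.2% lower. Of 13 stellate and myofibroblast markers in the table, 12 were tested: 8 rose, 2 fell and 2 did not pass. DES was too low to test, at 1.36 ± 2.36 normalized counts with IGFBP-7 and 0 with PBS. The summed level of the 13 was 262108 to 288690 with IGFBP-7 and 94717 to 97697 with PBS. COL1A1 was the largest part, at 198928 with IGFBP-7 and 49614 with PBS. Of 8 hepatocyte markers, only SERPINA1 was high enough to test, at 227 with IGFBP-7 and 252 with PBS, and it did not pass. ALB averaged 1.81 with IGFBP-7 and 0.712 with PBS. The summed level of the 8, most of it SERPINA1, was 231 to 262 with IGFBP-7 and 252 to 295 with PBS. Of 9 endothelial markers, 6 were tested: PECAM1 and TEK rose, EGFL7 fell and 3 did not pass. Their sums were 2303 to 2431 with IGFBP-7 and 2661 to 2793 with PBS. Most of this was EGFL7, at 1888 with IGFBP-7 and 2366 with PBS. CDH5, too low to test, averaged 0 with IGFBP-7 and 9.72 with PBS. Of 8 macrophage and leukocyte markers, 3 were tested: CSF1R rose 5.11-fold, and CD14 and CD68 were 4.65-fold and 1.96-fold lower. Sums were 1742 to 2037 with IGFBP-7 and 3292 to 3372 with PBS. Most of this was CD68, at 1466 with IGFBP-7 and 2863 with PBS. The leukocyte gene PTPRC, too low to test, averaged 4.67 with IGFBP-7 and 5.59 with PBS. Of 9 cholangiocyte and epithelial markers, 6 were tested: SOX9, KRT8 and KRT18 rose, MUC1 fell and 2 did not pass. Sums were 37946 to 44062 with IGFBP-7 and 27807 to 28614 with PBS. Most of this was KRT8 and KRT18, at 22821 and 16472 with IGFBP-7 and 14472 and 12162 with PBS. EPCAM, too low to test, averaged 6.13 with IGFBP-7 and 2.82 with PBS. The part of these marker differences in the results below was not tested.

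After IGFBP-7, 12 of the 27 tested genes rose and 7 fell, while 8 did not pass. The glutamine carrier gene SLC38A5 and the glutamate carrier gene SLC1A3 rose by 3.41-fold and 2.69-fold. The cystine carrier gene SLC7A11 and the purine base carrier gene SLC43A3 were 2.40-fold and 2.60-fold lower. Each change is a difference of log2(normalized count + 1), IGFBP-7 minus PBS, given ± SE. The SE and the p-value use a variance drawn toward that of genes of similar level. They can thus differ from what a gene's own replicate spread alone would give. The test was limma-trend, with Benjamini-Hochberg adjustment over the 11872 genes whose mean reached 10 normalized counts. A gene is called at an adjusted p under 0.05. The 27 tested genes are those of the 39 that reached this mean, so their counts do not describe all 39.

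The called share was 70.4% of these 27 genes, against 60.6% of all tested genes, 65.9% of tested protein-coding genes and 69.3% of 153 other tested SLC genes. Shares this close to the background are not a result about the amino acid carriers. By direction, 44.4% were higher and 25.9% lower. The same shares were 31.3% and 29.2% of all tested genes, 34.4% and 31.6% of protein-coding genes, and 32.7% and 36.6% of the other SLC genes. Their median log2 change was 0.24, against 0.02 over all tested genes and -0.12 over the other SLC genes. Changes of at least 2-fold were called in 5 of the 27, where the background is 11.4% of all tested genes, 11.1% of protein-coding genes and 10.5% of the other SLC genes. The groups did not overlap in 18 of the 27, 11 higher and 7 lower, where the background is 63.5% of all tested genes, 68.1% of protein-coding genes and 69.3% of the other SLC genes. In bulk RNA, fewer cells that express a gene and less RNA of it per cell cannot be told apart.

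The direction depends in part on scaling. With every library scaled to the same total, the median over all tested genes shifted by -0.14. This gave 9 genes higher and 9 lower of the 27, and a median of 0.10, while 20.5% of all tested genes were then higher and 35.2% lower. Quantile normalization gave 13 higher and 7 lower. Calls of single genes that changed with the scaling are given with each gene.

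**Figure D1:**
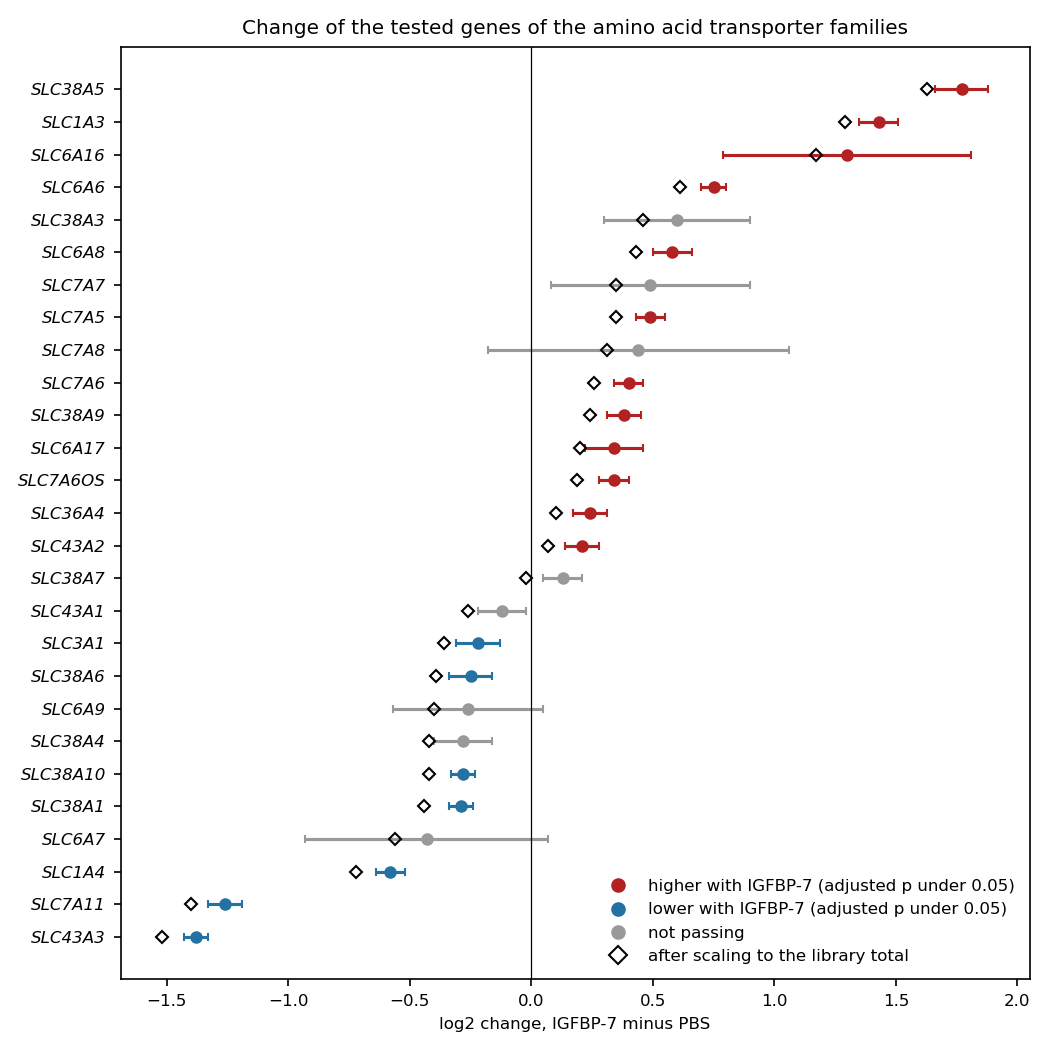
Log2 change, IGFBP-7 minus PBS, of the 27 tested genes, ordered by size. Circles with bars give the change ± SE, coloured by call at a limma adjusted p under 0.05, and open diamonds give the change after scaling to the library total. SLC38A5 stands at 1.77 and SLC43A3 at -1.38, and each diamond lies left of its circle.

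The system N genes encode sodium-coupled carriers of glutamine, asparagine and histidine. SLC38A5 (ENSG00000017483) was at 1156, 974 and 1153 normalized counts in the IGFBP-7 libraries, against 343, 379 and 250 in the PBS libraries. The lowest IGFBP-7 library was thus above the highest PBS library. The mean was 1094 ± 104 with IGFBP-7 and 324 ± 66.6 with PBS (SD, n = 3 each), a log2 change of 1.77 ± 0.11 (limma adjusted p = 1.86e-19). Its change was between 1.59 and 1.89 over 15 alternatives. SLC38A3, a glutamine carrier gene best known from hepatocytes, was at 68.4 ± 5.29 with IGFBP-7 and 48 ± 20.8 with PBS and did not pass (0.60 ± 0.30, limma adjusted p = 0.0749). It passed without PBS replicate 2 (limma adjusted p = 0.0189) and with quantile normalization (0.0484), within 0.0189 to 0.557 over its 14 alternatives.

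Of the SLC1 family, SLC1A3 encodes a sodium-coupled carrier of glutamate and aspartate, also known as GLAST. SLC1A3 (ENSG00000079215) was at 1634, 1498 and 1550 normalized counts in the IGFBP-7 libraries, against 570, 559 and 609 in the PBS libraries. The groups were far apart compared with the spread inside either. The mean was 1561 ± 68.3 with IGFBP-7 and 579 ± 26.2 with PBS, a log2 change of 1.43 ± 0.08 (limma adjusted p = 5.66e-21). SLC1A4, which encodes the neutral exchanger ASCT1 for alanine, serine and cysteine, moved the other way. It was at 2671, 2591 and 2460 with IGFBP-7, against 3842, 3777 and 3910 with PBS, with no overlap. Its log2 change was -0.58 ± 0.06 (limma adjusted p = 2.53e-12), and it was lower under all 15 alternatives.

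The other glutamate carrier genes in the table were near the limit of counting. SLC1A2, the main glutamate carrier of astrocytes, had 4 fragments in the IGFBP-7 libraries and 6 in the PBS libraries. SLC1A7 had 25 fragments with IGFBP-7 and 8 with PBS, a 2.92-fold difference per unit of depth (95% interval from counting alone, 1.28 to 7.5). All PBS fragments came from PBS replicate 1, at 8.24 normalized counts, which lies within the IGFBP-7 range of 6.2 to 11.2. The groups thus overlapped, and without that library SLC1A7 was at 0 with PBS. It was too low for the main test. When all genes of the table were tested, its limma adjusted p was 0.029.

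SLC7A11, SLC7A5 and SLC7A6 encode light chains that exchange amino acids across the plasma membrane when joined to a heavy chain. SLC7A11 (ENSG00000151012), the cystine and glutamate exchanger gene, was at 1641, 1669 and 1482 normalized counts with IGFBP-7, against 3532, 3747 and 4244 with PBS. Each IGFBP-7 library lay below each PBS library. The mean was 1597 ± 101 with IGFBP-7 and 3841 ± 365 with PBS, a log2 change of -1.26 ± 0.07 (limma adjusted p = 1.28e-22). SLC7A5 (ENSG00000103257) encodes LAT1, the exchanger of large neutral amino acids such as leucine. It was at 4944, 3985 and 4326 with IGFBP-7, against 3185, 2939 and 3296 with PBS, so that the groups did not overlap. Its log2 change was 0.49 ± 0.06 (limma adjusted p = 2.34e-09), or 0.35 with scaling to the library total.

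SLC7A6, which encodes an exchanger of cationic for neutral amino acids, was at 3959 ± 78 with IGFBP-7 and 2997 ± 83.3 with PBS. Its log2 change was 0.40 ± 0.06 (limma adjusted p = 2.75e-08). SLC7A7 and SLC7A8, light chain genes best known from kidney and gut epithelium, did not pass, at 30.7 ± 3.95 and 13.8 ± 7.78 with IGFBP-7 and 23 ± 9.57 and 9.56 ± 4.27 with PBS. SLC7A9 and SLC7A10 had 2 and 6 fragments with IGFBP-7, against 2 and 3 with PBS. The heavy chain gene SLC3A1, whose product pairs with that of SLC7A9 in cystine uptake by the kidney, was at 994 ± 19.1 with IGFBP-7 and 1167 ± 167 with PBS. Its log2 change was -0.22 ± 0.09 (limma adjusted p = 0.0228), and PBS replicate 1 lay within the IGFBP-7 range. The call was lost without IGFBP-7 replicate 1 (limma adjusted p = 0.0726), PBS replicate 2 (0.0802) or PBS replicate 3 (0.239), within 0.000363 to 0.239 over its alternatives. SLC7A14 and SLC7A4, listed here with the cationic carrier genes of the family, had 17 and 0 fragments with IGFBP-7, against 26 and 1 with PBS.

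**Figure D2:**
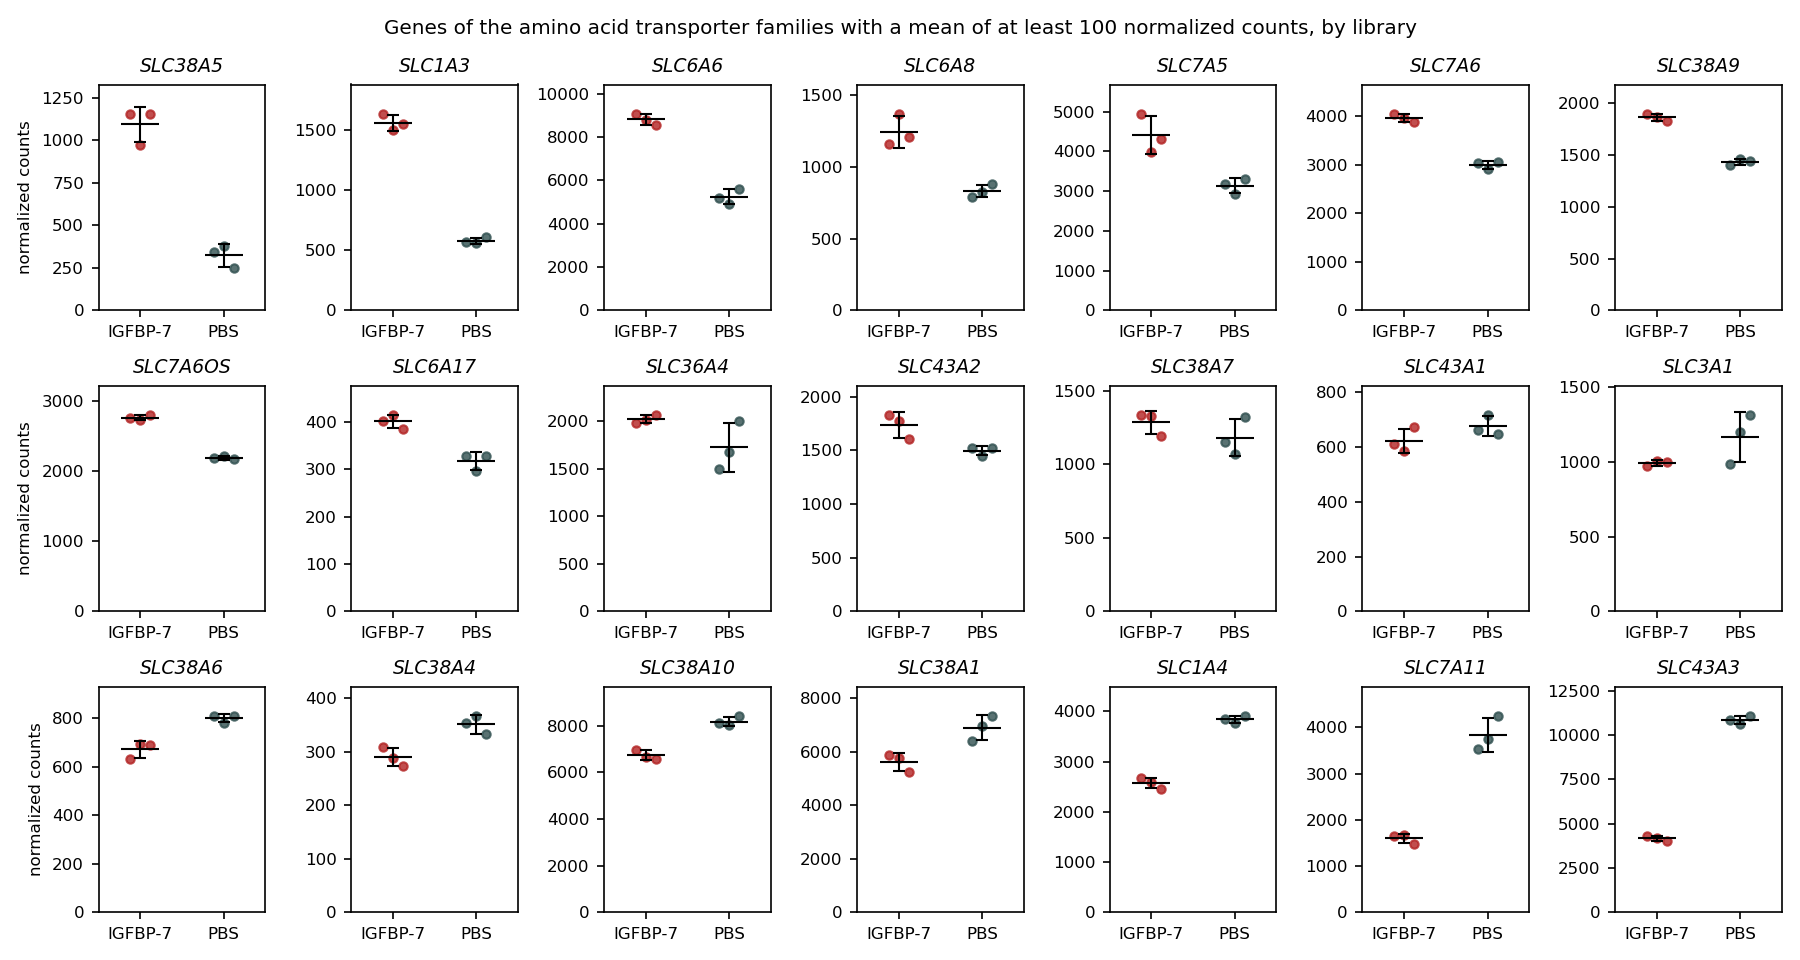
Normalized counts of the 21 genes whose mean reached 100, each on its own axis from 0. Points are libraries, IGFBP-7 left and PBS right, and bars give the mean ± SD (n = 3). SLC38A5, SLC1A3, SLC7A11 and SLC43A3 show the widest gaps between the groups in proportion to their level, and the groups of SLC36A4, SLC38A7, SLC43A1 and SLC3A1 overlap.

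Upstream sequences are shown for SLC38A5 and SLC1A3, the genes with the largest rises among genes whose mean reached 100 normalized counts, and for SLC7A5, another rising gene. Each run is the 250 bases before an annotated start, 5′ to 3′, from RefSeq (GRCh38.p14). It is the gene's first listed start whose window holds the marked motif, so the window was picked for that motif. SLC1A3 has other annotated starts, whose windows hold no amino acid response element core. Capitals mark an E-box in the first pair and an amino acid response element core in the last.
SLC38A5 (chrX:48470261-48470510, minus strand): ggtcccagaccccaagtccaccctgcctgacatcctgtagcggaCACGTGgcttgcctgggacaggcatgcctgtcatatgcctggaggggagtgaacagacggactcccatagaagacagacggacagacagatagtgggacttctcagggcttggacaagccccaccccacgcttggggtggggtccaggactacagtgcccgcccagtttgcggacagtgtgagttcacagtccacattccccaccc
SLC7A5 (chr16:87869508-87869757, minus strand): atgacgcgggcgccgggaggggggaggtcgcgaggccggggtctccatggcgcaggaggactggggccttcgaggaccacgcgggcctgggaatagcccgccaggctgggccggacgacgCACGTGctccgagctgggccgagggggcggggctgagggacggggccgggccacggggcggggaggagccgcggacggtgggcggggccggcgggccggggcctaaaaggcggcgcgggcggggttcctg
SLC1A3 (chr5:36596338-36596587, plus strand): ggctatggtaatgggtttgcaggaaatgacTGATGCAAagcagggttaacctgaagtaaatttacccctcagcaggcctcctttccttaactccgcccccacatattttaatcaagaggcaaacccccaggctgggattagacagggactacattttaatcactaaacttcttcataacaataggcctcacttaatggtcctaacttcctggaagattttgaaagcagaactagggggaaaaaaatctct

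RefSeq gave 46 such windows for 30 of the 39 genes, so that SLC7A11, SLC43A3 and SLC6A6, among others, were not searched. In these windows both strands were searched for 4 motifs. The E-box CACGTG, which basic helix-loop-helix factors such as MYC and TFEB bind, was in 7 of the 46 windows (15.2%) and in 6.34% of the 35116 windows of all genes. Besides SLC38A5 and SLC7A5, these belonged to SLC1A7, SLC43A1, SLC6A16, SLC7A7 and SLC7A8. The amino acid response element core TGATGNAA, a site of ATF4, was in 1 window, of SLC1A3, and in 3.14% of all windows. The antioxidant response element core TGACNNNGC was in 3 windows, of SLC1A3, SLC7A6 and SLC7A7, and in 10.9% of all. The AP-1 motif TGANTCA was in 7 windows and in 6.57% of all, with SLC36A4, SLC38A1, SLC38A9, SLC43A2, SLC6A17, SLC1A3 and SLC7A8 among the genes. No 2 of these matches shared bases. A match of letters is no evidence of binding.

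Of the other SLC38 genes, SLC38A9 encodes a lysosomal arginine sensor that acts on mTORC1, the kinase complex that links amino acids to growth. It was at 1892, 1865 and 1824 normalized counts with IGFBP-7, against 1398, 1454 and 1438 with PBS, with no overlap. Its log2 change was 0.38 ± 0.07 (limma adjusted p = 4.88e-06). SLC38A7, which encodes a lysosomal exporter of glutamine and asparagine, was at 1285 ± 79.2 with IGFBP-7 and 1181 ± 128 with PBS and did not pass (0.13 ± 0.08, limma adjusted p = 0.177). Its sign turned to -0.02 with scaling to the library total, and it passed only without PBS replicate 3 (0.21, limma adjusted p = 0.0385, within 0.0385 to 0.879 over its alternatives).

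The system A carrier gene SLC38A1 and SLC38A10, a family member of less well known function, were lower with IGFBP-7. SLC38A1 was at 5869, 5789 and 5245 with IGFBP-7, against 6404, 6985 and 7343 with PBS, a log2 change of -0.29 ± 0.05 (limma adjusted p = 6.16e-06). SLC38A10 changed by -0.28 ± 0.05 (limma adjusted p = 2.33e-06). Neither gene overlapped between groups. SLC38A4, another system A gene, had a similar value of -0.28 ± 0.12 that did not pass (limma adjusted p = 0.0517). It passed under 5 of its 15 alternatives, within 0.00376 to 0.14. These were scaling to the library total (-0.42, limma adjusted p = 0.00376), a minimum mean of 100 (limma, 0.049), edgeR (0.0313), DESeq2 (0.0231) and leaving out IGFBP-7 replicate 1 (limma, 0.0452). SLC38A6 was at 671 ± 34.5 with IGFBP-7 and 799 ± 16.6 with PBS, a log2 change of -0.25 ± 0.09 (limma adjusted p = 0.0141). That call was lost without IGFBP-7 replicate 1 (limma adjusted p = 0.0704, within 0.000237 to 0.0704 over its alternatives).

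SLC43A1, SLC43A2 and SLC43A3 are the 3 members of their family. SLC43A3 (ENSG00000134802), which encodes a purine base carrier, was at 4299, 4207 and 4001 normalized counts with IGFBP-7, against 10860, 10609 and 11068 with PBS. The highest IGFBP-7 library was well below the lowest PBS library. The mean was 4169 ± 153 with IGFBP-7 and 10845 ± 230 with PBS, a log2 change of -1.38 ± 0.05 (limma adjusted p = 1.13e-29). The genes for the facilitative carriers of branched-chain and other large neutral amino acids did not follow it. SLC43A2 was at 1737 ± 117 with IGFBP-7 and 1498 ± 44.4 with PBS (log2 change 0.21 ± 0.07, limma adjusted p = 0.00847), and SLC43A1 at 622 ± 44.1 and, with PBS, 675 ± 36.5 (-0.12 ± 0.10, limma adjusted p = 0.293). The SLC43A2 call was lost with scaling to the library total (limma adjusted p = 0.394) and without IGFBP-7 replicate 1 (0.0604), within 0.00263 to 0.394. SLC43A1 was called lower with scaling to the library total (-0.26, limma adjusted p = 0.0185, within 0.0185 to 0.579).

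Of the SLC36 genes, SLC36A4 encodes a carrier of proline and tryptophan. It was at 1980, 2016 and 2064 normalized counts with IGFBP-7, against 1500, 1671 and 2005 with PBS. PBS replicate 3 lay within the IGFBP-7 range. The log2 change of 0.24 ± 0.07 passed (limma adjusted p = 0.00527), but not without PBS replicate 1 (0.14, limma adjusted p = 0.113) or with scaling to the library total (0.10, limma adjusted p = 0.282), within 6.16e-05 to 0.282. SLC36A3 had 6 fragments with IGFBP-7 and 8 with PBS.

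In the SLC6 family of sodium- and chloride-coupled carriers, 4 of 6 tested genes rose and 2 did not pass, where 31.3% of all tested genes and 34.4% of protein-coding genes were higher. The calls of SLC6A16 and SLC6A17 were lost under some alternatives, given below with each gene. SLC6A6, the taurine carrier gene, was at 9057, 8794 and 8566 normalized counts with IGFBP-7, against 5202, 4924 and 5597 with PBS. SLC6A8, the creatine carrier gene, was at 1158, 1368 and 1205 with IGFBP-7, against 793, 827 and 878 with PBS. Both genes were higher in every IGFBP-7 library than in any PBS library. Their log2 changes were 0.75 ± 0.05 (limma adjusted p = 3.65e-18) and 0.58 ± 0.08 (limma adjusted p = 4.46e-08).

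SLC6A17, which encodes a vesicular carrier of neutral amino acids known from neurons, was at 400 ± 14.4 with IGFBP-7 and 317 ± 19.1 with PBS. Its log2 change of 0.34 ± 0.12 passed (limma adjusted p = 0.0125), but not without PBS replicate 2 (limma adjusted p = 0.058) or with scaling to the library total (0.155), within 0.00513 to 0.155. SLC6A16, an orphan member, rested on 89 fragments with IGFBP-7 and 34 with PBS. It was at 20.4, 39 and 23.8 normalized counts with IGFBP-7, against 6.18, 19.6 and 8.54 with PBS, a log2 change of 1.30 ± 0.51 (limma adjusted p = 0.0245). The call was lost without IGFBP-7 replicate 2 (limma adjusted p = 0.152), PBS replicate 1 (0.0989) or PBS replicate 3 (0.0504), within 0.00777 to 0.152.

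The proline carrier gene SLC6A7 and the glycine carrier gene SLC6A9 did not pass, at 14.6 ± 6.04 and 44.2 ± 12.4 with IGFBP-7 and 19.1 ± 3.16 and 53 ± 14.2 with PBS. SLC6A12, which encodes a betaine and GABA carrier, had 15 fragments with IGFBP-7 and 2 with PBS, a 7.02-fold difference per unit of depth (95% interval from counting alone, 1.63 to 63.2). Both PBS fragments came from PBS replicate 2. SLC6A12 was too low for the main test, and its limma adjusted p was 0.025 when all genes of the table were tested. The serotonin carrier gene SLC6A4 had 29 fragments with IGFBP-7 and 17 with PBS. The GABA carrier genes SLC6A11 and SLC6A13 had 2 and 13 fragments with IGFBP-7, against 13 and 22 with PBS.

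Some of these genes share exon bases with a gene on the other strand in GENCODE release 29, which may not be the annotation the authors used. Whether the authors counted by strand is not stated in the labels, so the reads of such a pair may be mixed and each value is uncertain. SLC7A6 and SLC7A6OS share 3371 exon bases. SLC7A6OS was at 2771 ± 33.7 with IGFBP-7 and 2194 ± 26.6 with PBS, a log2 change of 0.34 ± 0.06 (limma adjusted p = 5.02e-06) beside the 0.40 of SLC7A6. The antisense gene SLC7A11-AS1 shares 865 bases with SLC7A11. It was at 183 ± 38.3 with IGFBP-7 and 392 ± 20.5 with PBS, a log2 change of -1.12 ± 0.14 (limma adjusted p = 2.96e-09), which is in the direction of SLC7A11.

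SLC3A1 shares 1923 bases with PREPL, a peptidase gene that changed by -0.29 ± 0.06 (limma adjusted p = 4.43e-05). SLC6A6 shares 239 bases with the scaffold protein gene GRIP2, which was at 241 ± 12.6 with IGFBP-7 and 107 ± 4.4 with PBS (1.16 ± 0.17, limma adjusted p = 4.58e-08). SLC38A6 shares 245 bases with TRMT5, a transfer RNA methylase gene, whose log2 change was 0.18 ± 0.08 (limma adjusted p = 0.0418). The TRMT5 call was lost without IGFBP-7 replicate 1 (limma adjusted p = 0.15), IGFBP-7 replicate 2 (0.179), PBS replicate 1 (0.234) or PBS replicate 2 (0.0819). It was also lost with scaling to the library total (limma adjusted p = 0.679), quantile normalization (limma, 0.0992) and no filter (limma, 0.0564). Neither edgeR (adjusted p = 0.0722) nor DESeq2 (0.0733) called TRMT5, and its adjusted p was within 0.0083 to 0.679 over its alternatives. SLC6A17-AS1, which shares 489 bases with SLC6A17, had a log2 change of 0.00 ± 0.28 and did not pass. SLC6A7, SLC6A8 and SLC6A9 share 129, 22 and 404 bases with CAMK2A, PNCK and CCDC24. The log2 changes of these 3 neighbours were 0.73 ± 0.30, 0.76 ± 0.33 and -0.37 ± 0.14. SLC38A4-AS1, which shares no exon base with SLC38A4 there, fell to 84.7 ± 4.17 with IGFBP-7, against 155 ± 9.89 with PBS (-0.86 ± 0.20, limma adjusted p = 0.000154).

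**Figure D3:**
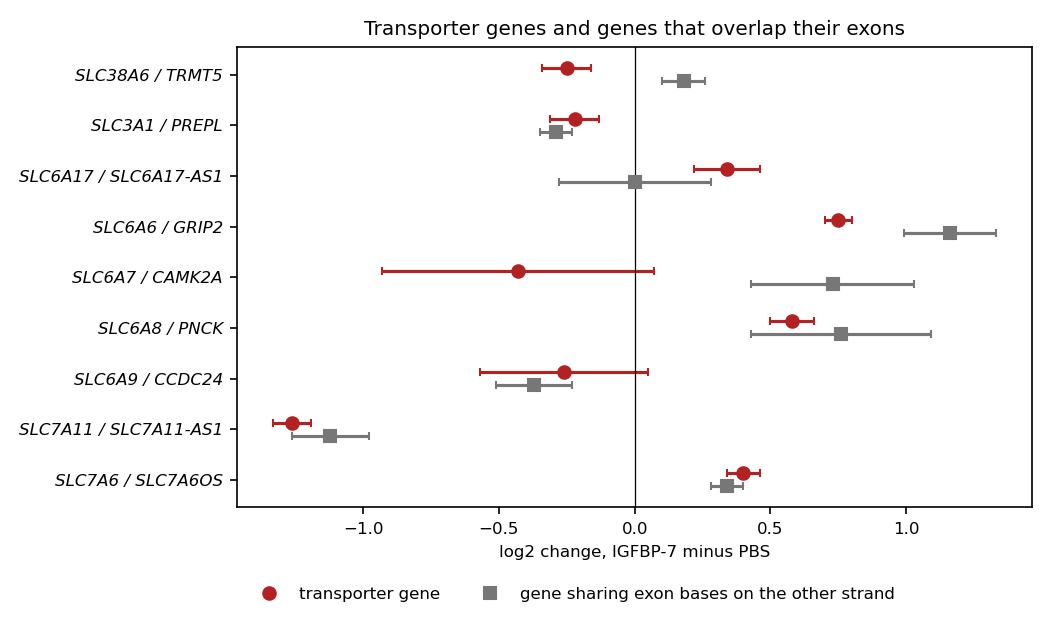
Log2 change ± SE, IGFBP-7 minus PBS, of 9 tested genes of the transporter families (circles) and of the gene that shares exon bases with each on the other strand (squares). SLC7A11 at -1.26 and SLC7A11-AS1 at -1.12 lie together, as do SLC7A6 at 0.40 and SLC7A6OS at 0.34. SLC38A6 and TRMT5 lie on opposite sides of 0, but the calls of both were lost under some alternatives. SLC6A7 at -0.43, which did not pass, and CAMK2A at 0.73 also lie on opposite sides.

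Genes around amino acid supply moved both ways, as did all tested genes. The background is 31.3% higher and 29.2% lower of all tested genes, and 34.4% and 31.6% of protein-coding genes. When scaled to the library total, it is 20.5% higher and 35.2% lower of all tested genes. Counts near these shares are not a result about a list. ATF4 is the transcription factor of the amino acid response and acts on many carrier genes. Among 22 tested ATF4 and amino acid response targets, 10 fell, 6 rose and 6 did not pass. Their median log2 change was -0.03 (-0.18 when scaled to the library total). The secreted glycoprotein gene STC2 was at 1166 ± 35.2 with IGFBP-7 and 3428 ± 227 with PBS (-1.55 ± 0.07, limma adjusted p = 2.63e-26), and the phosphatase subunit gene PPP1R15A was at -1.25 ± 0.06 (limma adjusted p = 7.17e-24). DDIT4, which encodes an inhibitor of mTORC1, rose by 1.07 ± 0.09 (limma adjusted p = 2.27e-14). ASNS, the asparagine synthetase gene, was at 1559 ± 75.3 with IGFBP-7 and 1797 ± 97.1 with PBS (-0.20 ± 0.07, limma adjusted p = 0.0103). The ASNS call was lost without IGFBP-7 replicate 2 (limma adjusted p = 0.0693) or PBS replicate 2 (0.0675), within 3.3e-05 to 0.0693.

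Of 20 listed cytosolic aminoacyl-tRNA synthetase genes, whose enzymes load amino acids onto transfer RNA, only 9 had values. All 9 were tested, and 7 rose and 2 fell (median 0.28). When scaled to the library total, 6 rose and 2 fell (median 0.14). VARS1, for valine, rose by 0.43 ± 0.05 (limma adjusted p = 1.5e-10). AARS1, for alanine, fell to 5061 ± 317 with IGFBP-7, against 6740 ± 190 with PBS (limma adjusted p = 1.85e-09).

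Of 25 tested genes of amino acid sensing by mTORC1, 8 rose and 8 fell, and 9 did not pass (median 0.02). When scaled to the library total, 4 rose and 10 fell (median -0.13). BMT2, which encodes the methionine-derivative sensor SAMTOR, rose by 0.64 ± 0.09 (limma adjusted p = 2.35e-08), and KICS2, a subunit gene of the KICSTOR complex, by 0.63 ± 0.17 (limma adjusted p = 0.00134). The Rag GTPase gene RRAGC fell to 2197 ± 28.4 with IGFBP-7, against 3182 ± 102 with PBS (limma adjusted p = 8.48e-11).

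Among 20 tested enzymes of glutamine, glutamate, arginine and branched-chain amino acid metabolism, 10 fell and 7 rose, and 3 did not pass (median -0.18). When scaled to the library total, 10 fell and 6 rose (median -0.32). BCAT1, the cytosolic branched-chain aminotransferase gene, was at 9581 ± 383 with IGFBP-7 and 5484 ± 323 with PBS (0.81 ± 0.05, limma adjusted p = 1.73e-19). PYCR1, which encodes the last enzyme of proline synthesis in mitochondria, rose by 0.71 ± 0.06 (limma adjusted p = 1.71e-15).

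Among 10 tested genes of glutathione and cystine use, 6 fell and 1 rose, and 3 did not pass (median -0.43). When scaled to the library total, 7 fell and 1 rose. TXNRD1, the thioredoxin reductase gene, was at 9823 ± 247 with IGFBP-7 and 25117 ± 363 with PBS (-1.35 ± 0.04, limma adjusted p = 3.62e-32). CHAC1, which encodes an enzyme that degrades glutathione, was at -0.72 ± 0.14 (limma adjusted p = 2.51e-05). GCLM, which encodes the modifier subunit of the enzyme that starts glutathione synthesis, went against these and was at 6182 ± 348 with IGFBP-7 and 2770 ± 277 with PBS (1.16 ± 0.06, limma adjusted p = 7.26e-23).

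Amino acid carriers of other families numbered 10 tested genes, where 3 fell and 2 rose, and 5 did not pass (median -0.19). When scaled to the library total, 4 fell and 2 rose (median -0.33). The mitochondrial carrier gene SLC25A29 for basic amino acids was at 1681 ± 75.9 with IGFBP-7 and 2874 ± 118 with PBS (limma adjusted p = 4.87e-15). SLC25A13, which encodes the mitochondrial aspartate and glutamate carrier citrin, rose by 0.41 ± 0.06 (limma adjusted p = 1.35e-07). MFSD12, which encodes a lysosomal carrier of cysteine, rose to 6858 ± 105 with IGFBP-7, against 4294 ± 47.5 with PBS (limma adjusted p = 1.36e-16).

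Of 9 tested regulators of carrier genes or proteins, 6 fell and 3 rose (median -0.32). MYC, whose protein raises transcription of many growth genes, was at 4733 ± 181 with IGFBP-7 and 1985 ± 66.8 with PBS (1.25 ± 0.06, limma adjusted p = 1.13e-24). TFEB, a lysosomal gene regulator, was at 728 ± 31.5 with IGFBP-7 and 307 ± 29.6 with PBS (1.25 ± 0.11, limma adjusted p = 1.94e-14), whereas its relative MITF was at 428 ± 52.2 and, with PBS, 1135 ± 52.4 (-1.41 ± 0.10, limma adjusted p = 3.35e-18). These lists are described by their counts and medians alone, without a test of the list. Values were at hand for 23 of 30 response targets, 9 of 20 synthetase genes and 25 of 37 sensing genes. The same holds for 23 of 30 enzymes, 10 of 16 glutathione genes, 13 of 21 other carriers and 12 of 17 regulators. The counts and medians thus do not describe whole lists, and some genes, such as ASNS and SESN2, are on more than 1 list.

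**Figure D4:**
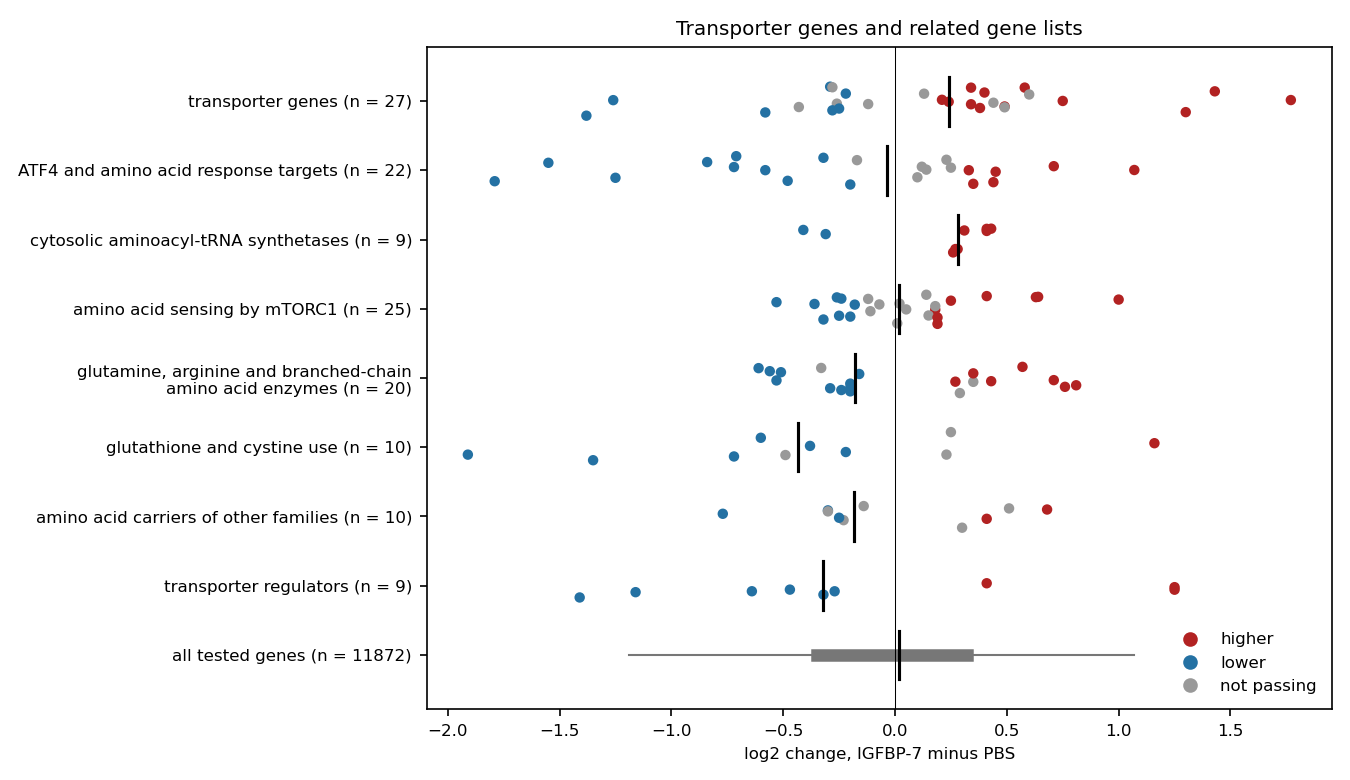
Log2 change, IGFBP-7 minus PBS, of each tested gene of the transporter families and of 7 related lists. Points are genes coloured by call, black bars are medians, and the grey box and line give the 25th to 75th and the 5th to 95th percentile of the 11872 tested genes. The 27 genes have a median of 0.24 and the glutathione and cystine list one of -0.43.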

How the data were processed

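RNA sequencing was done on 3 IGFBP-7 and 3 PBS libraries of LX-2 cells, with poly(A) selection and a directional library kit, per the labels' protocols. Groups were taken from the treatment label. The deposited values are normalized counts per gene, a signal, per the file headers. The values themselves show that the authors divided read counts by 1 factor per library. The submitters' processing notes list STAR, Subread, featureCounts and DESeq2, but not their versions. The genome build, the annotation and the strand setting are not stated there.

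Within each library 100% of the values were whole multiples of 1 step within 0.01, which recovers the authors' reads. Of nonzero recovered counts 99.6% were even, so 2 reads were taken as 1 fragment. A level of 3 fragments, the limit that a count of 0 allows, is 2.54 to 3.2 normalized counts. This limit and the intervals describe counting error alone. Libraries of a group differed by a chi-square per degree of freedom of 5.1 to 6.93, and all were counted separately.

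The comparison used limma 3.58.1 (limma-trend, R 4.3.3) on log2(normalized count + 1), without covariates, on genes with a mean of at least 10, two-sided, with Benjamini-Hochberg adjustment. The scale understates changes of low genes. Alternatives were pseudocounts of 0.5 and 5, no filter, a mean of at least 100, scaling to the library total, quantile normalization, edgeR 4.0.16 and DESeq2 1.42.0 on recovered reads, a replicate block, and leaving out each library. The tests were tested on simulated data in which few genes changed, equally up and down, which does not bear on the scaling.

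Values in every library are given by rule for genes with an adjusted p under 0.05, a log2 change of at least 1 in size and a mean of at least 100, and for SLC7A5; other such values illustrate a role. Of each related list the 3 largest changes with a mean of at least 100 are named, and MYC and ASNS always; some genes of the families and lists are counted but not reported here by name. Members, lists and motifs were chosen with earlier results of these data known. Counting ratios use exact binomial intervals. Promoters are RefSeq sequences matched by symbol.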

Additional observations from a re-analysis of the deposited data

How the results depend on the processing

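Of the 27 tested genes, 17 kept their direction and their side of the threshold under each alternative run, as did 376 of 399 values. There were 15 alternatives, or 14 for genes with a mean under 100, such as SLC6A7, SLC6A9, SLC7A7 and SLC7A8. SLC38A5, SLC1A3, SLC6A6, SLC7A5, SLC1A4, SLC7A11 and SLC43A3 are among these 17. Scaling to the library total reversed the uncalled SLC38A7 (-0.02) and gave 2435 genes higher in all, against 3721. Leaving out 1 library gave 10 to 12 of the 27 genes higher and 6 to 7 lower, and 3403 to 3605 genes higher and 3180 to 3299 lower overall. Where a library was left out of a group, its remaining 2 shared the spread estimate of both groups. On recovered reads, edgeR called 3541 genes higher and 3562 lower, and DESeq2 3572 and 3536. The replicate block gave 12 and 7 of the 27 genes higher and lower, and 3715 genes higher and 3462 lower. Same-numbered libraries did not deviate together (r = -0.05, 0.01 and -0.05). No library correlated best with the library of its own number, so the numbers were not taken as pairs. Levels under 3 fragments per library are within the limit of counting at this depth, which touches some of the 12 untested genes.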
